A study of Mus musculus with 6 samples.

Results

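The actin cytoskeleton genes examined here were 46 genes picked by name, comprising the 6 cytoskeletal genes reported as miR-142 targets in other blood cells (Wasl, Cfl2, Twf1, Clic4, Rac1 and Rock2) and 40 further genes that build, branch, cut, cross-link or anchor actin filaments. Their symbols matched 46 of the 24421 gene rows in the count matrix of the series. The series compared regulatory T (Treg) cells with and without the microRNA miR-142 by RNA-seq of the whole sorted population. WT libraries came from Foxp3Cre mice and KO libraries from Foxp3Cre miR-142fl/fl mice, whose floxed miR-142 alleles are cut by Cre. Each group had 3 libraries from biological replicate mice, all female, C57BL/6 and 8 to 11 weeks old. Both groups carried a Cre fused to yellow fluorescent protein (YFP) under the Foxp3 promoter, so Cre and the sort marker follow Foxp3 expression. Whether the Cre knock-in had an equal effect in both groups was not tested. Cells were sorted from spleen as CD4+YFP+ and lysed without treatment. The KO cells came from whole mice in which the deletion began with Foxp3 expression, so a change within a Treg cell and a change in the conditions it lived in cannot be told apart.

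T cells reshape actin when they crawl, form a synapse with another cell or divide. Small GTPases such as Rac1 and Cdc42 switch on nucleation factors (WASP, N-WASP and WAVE) that make the Arp2/3 complex start branched filaments, while formins and Ena/VASP proteins extend unbranched ones. Cofilins sever old filaments, LIM kinases inactivate cofilins by phosphorylation, slingshot phosphatases reactivate them, and alpha-actinins, filamin and myosin II bundle or contract the network. A microRNA lowers transcripts that pair with its seed (bases 2 to 8), and miR-142, made in nearly all blood cells, gives 2 mature strands with unrelated seeds.

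The mature strands, as listed by RefSeq for GRCm38.p6, are printed with the seed in capitals because the sites described next are read from it. Both lie on the plus strand of chromosome 11, the 5p strand at chr11:87756867-87756887 and the 3p strand at chr11:87756903-87756925.
miR-142a-3p: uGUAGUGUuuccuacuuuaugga
miR-142a-5p: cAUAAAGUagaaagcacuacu
A site was a 7-base match in the longest annotated 3′ UTR of a gene (GENCODE vM21, GRCm38), searched on the transcript strand only. Each seed gives a pair of motifs. The first is complementary to all 7 seed bases, and the second leaves out the last of them and ends in a fixed A, which need not pair. The 3p seed gives ACACTAC or CACTACA. A 3p form that starts 1 base later gives AACACTA or ACACTAA, which can overlap the first pair, and the 5p seed gives ACTTTAT or CTTTATA. A 3p site of either kind was present in 11 of the 46 members (23.9%) and in 2512 of the 11123 tested genes with an annotated 3′ UTR (22.6%). A 5p site was present in 12 members (26.1%) and in 2616 of the 11123 (23.5%). By these letters alone the 46 members carried miR-142 sites about as often as other genes did, but 6 were listed as known targets. Of the 40 members that were not, 6 had a 3p site (15.0%) and 8 a 5p site (20.0%).

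Of the 6 reported targets, 5 held a 3p site, and the longest matches of those 5 are printed here with the matched bases in capitals. All lie in the last exon of their gene. The Wasl UTR of 2480 bases held 6 separate matched stretches, more than any other member, and the stretch of 11 bases joins a match of each 3p form.
Wasl, chr6:24616232-24616261, minus strand, exon 11 of 11: tttaaggtgaaatactaAACACTACttcct
Wasl, chr6:24615756-24615785, minus strand, exon 11 of 11: ctctagacaccactCACTACACTAAtgcag
Cfl2, chr12:54860418-54860447, minus strand, exon 4 of 4: accatatgagtcttgaAACACTACAgatat
Twf1, chr15:94578186-94578215, minus strand, exon 9 of 9: atgctctgaagcctagtACACTACAtcgaa
Rac1, chr5:143506241-143506270, minus strand, exon 6 of 6: gaagtagagattactttACACTACAttgta
Rock2, chr12:16984889-16984918, plus strand, exon 33 of 33: gactgcgtcataaagtcACACTACAttgca
Clic4, the remaining reported target, had no 3p match in its 3132-base UTR and 2 matches to CTTTATA, the 5p motif that ends in the fixed A.
Clic4, chr4:135215281-135215310, minus strand, exon 6 of 6: aatcagggtgtgagcaccCTTTATAtgcaa
Clic4, chr4:135214938-135214967, minus strand, exon 6 of 6: aagggtagaattgttttcCTTTATAgagag
The other 6 members with a 3p site were Arpc1a, Arpc4, Limk1, Limk2, Myh9 and Vcl, each with a single 7-base match. Those of the 4 among them that passed the test are printed, since 2 were higher and 2 lower in KO cells.
Arpc1a, chr5:145108667-145108696, plus strand, exon 10 of 10: ttattatggaagattgtcACACTAActtaa
Limk1, chr5:134656518-134656547, minus strand, exon 16 of 16: acaggagggtccagcccgCACTACAgaggc
Limk2, chr11:3345396-3345425, minus strand, exon 12 of 12: ctgggaggctgtagctttACACTAAtcaac
Myh9, chr15:77760640-77760669, minus strand, exon 41 of 41: atgtgtcgcagctgtcacCACTACAgtaag
A match is a run of letters and was not tested here for binding.

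Total counts ranged from 13883069 to 24042994 per library, and a floor of 3 counts, which covers counting error only, lay between 0.123 and 0.227 CPM (a count scaled by its library total). The deletion was visible in Mir142b, annotated on the opposite strand of the miR-142 hairpin, at 9.05, 4.14 and 5.81 CPM in WT and 0.389, 0.379 and 0.342 CPM in KO libraries (log2 fold change −4.07, FDR = 0.0013), whereas Mir142 itself had no counts in any library, and without strand reads of the 2 cannot be told apart. All 7 Treg markers matched were above 1 CPM in every WT library, and their summed level was 4820 to 5550 CPM in WT and 6760 to 7690 CPM in KO libraries. The markers did not move together, since Il2ra was at 756 ± 38.0 CPM in WT and 2578 ± 435 CPM in KO cells (SD, n = 3), while Cd4 was at 1021 ± 19.6 and 876 ± 47.2 CPM and Ikzf2 at 1382 ± 203 and 1405 ± 163 CPM. KO replicate 1 stood apart. Its 12 monocyte and macrophage markers summed to 3120 CPM against at most 90.3 CPM elsewhere, its 13 neutrophil markers to 1040 CPM against at most 49.5 CPM, its 8 B cell markers to 290 CPM against at most 41.1 CPM, and its 8 erythroid markers to 37.1 CPM against at most 4.77 CPM. KO replicates 2 and 3 were also above WT, at 16.8 and 49.5 CPM for the neutrophil markers against at most 5.91 CPM in WT. For the monocyte and macrophage markers they were at 90.3 and 23.8 CPM against at most 17.4 CPM. These sums rested unevenly on their genes. Mpo was at 6.21 and 32.2 CPM and Mmp9 at 8.93 and 8.01 CPM, while S100a8 was at 0 and 0.89 CPM. Vcam1 was at 35.1 and 11.2 CPM and Csf1r at 12.6 and 0.89 CPM, while Cd68, at 4.09 and 3.08 CPM, was below every WT library. The erythroid markers were at 4.77 and 2.81 CPM in KO replicates 2 and 3 against at most 1.17 CPM in WT. The B cell markers went the other way, at 8.86 and 13.1 CPM against 30.1 to 41.1 CPM in WT. Leaving out KO replicate 1 therefore does not remove all of the neutrophil, macrophage and erythroid signal, and it leaves the B cell markers below WT. The part of these signals in the members' values was not tested. The 7 CD8 and NK cell markers summed to 20.3 to 24.4 CPM in WT and 45.8 to 85.6 CPM in KO libraries, and most of that difference was Eomes (5.79 ± 1.27 and 37.0 ± 6.36 CPM), while Cd8b1 was at 12.8 ± 1.17 and 13.9 ± 2.94 CPM and Klrb1c at 3.39 ± 0.878 and 0.837 ± 0.543 CPM. The 8 platelet markers summed to 120 to 140 CPM in WT and 80.9 to 127 CPM in KO libraries, nearly all of it Itgb3 (129.6 ± 11.2 and 89.1 ± 25.8 CPM). Pf4 was at 0 in all WT libraries and at 0.44 ± 0.414 CPM in KO cells, and Itga2b was at 3.45 ± 0.0277 and 5.47 ± 0.828 CPM. KO replicate 1 was the highest KO library in 28 of the 46 members and the lowest in 8. Each called member is given with and without it. In such bulk RNA, fewer cells of a type and less RNA per cell cannot be told apart.

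All 46 members passed the filter on low values, which kept genes above 1 CPM in 3 or more libraries. Together they took 2.44% to 2.90% of all CPM in each library, with no gap between the groups. Per kilobase of merged exon (FPKM, which divides CPM by the length in kilobases), 16 of the 46 were above 100 FPKM in WT cells and 6 were under 10 FPKM. The highest was Actb (β-actin) at 1936 ± 437 FPKM (SD, n = 3), followed by Coro1a (coronin 1A, the leukocyte coronin) at 580 ± 50.6 FPKM and Pfn1 (profilin 1, which feeds actin monomers to growing ends) at 548 ± 27.8 FPKM. Actb stood clear of the next in this order, while Coro1a and Pfn1 differed by less than the SD of Coro1a. The 6 low members were Rock2 at 9.72, Limk1 at 6.15, Cfl2 at 5.61, Clic4 at 4.74, Actg1 at 4.17 and Vcl at 1.29 FPKM, so 3 of the 6 reported targets were among the least abundant. Actg1 (γ-actin) is near-identical to other actin genes and to pseudogenes, and how reads with several matches were counted is not given in the sources used here, so its level is uncertain. Exons of 20 members overlapped an exon of another annotated gene, and the counts were made without strand, so reads there cannot be told apart. Those 20 include Cfl2, Twf1, Rac1, Arpc1a, Evl and Actn1.

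Of the 46 members, 7 were higher and 4 lower in KO than in WT cells at a false discovery rate (FDR) under 0.05 (edgeR quasi-likelihood F test, adjusted over 11658 genes). Over all genes tested, 11.6% were higher and 7.27% lower. The members called in either direction were 23.9%, against 18.8% of all genes tested, and the median log2 fold change was −0.04 over the members and 0.02 over all genes. The higher members were Clic4, Twf1, Cfl2, Arpc1a, Limk1, Rac1 and Rock2, and the lower ones Actn1, Evl, Myh9 and Limk2. The 3 KO libraries lay all above or all below the 3 WT libraries in 21 members, above in 11 and below in 10. The same held for 41.0% of all genes tested. The exact permutation test of 3 against 3 libraries cannot give a p under 0.1, so calls come from the fit across all genes.

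**Figure D1:**
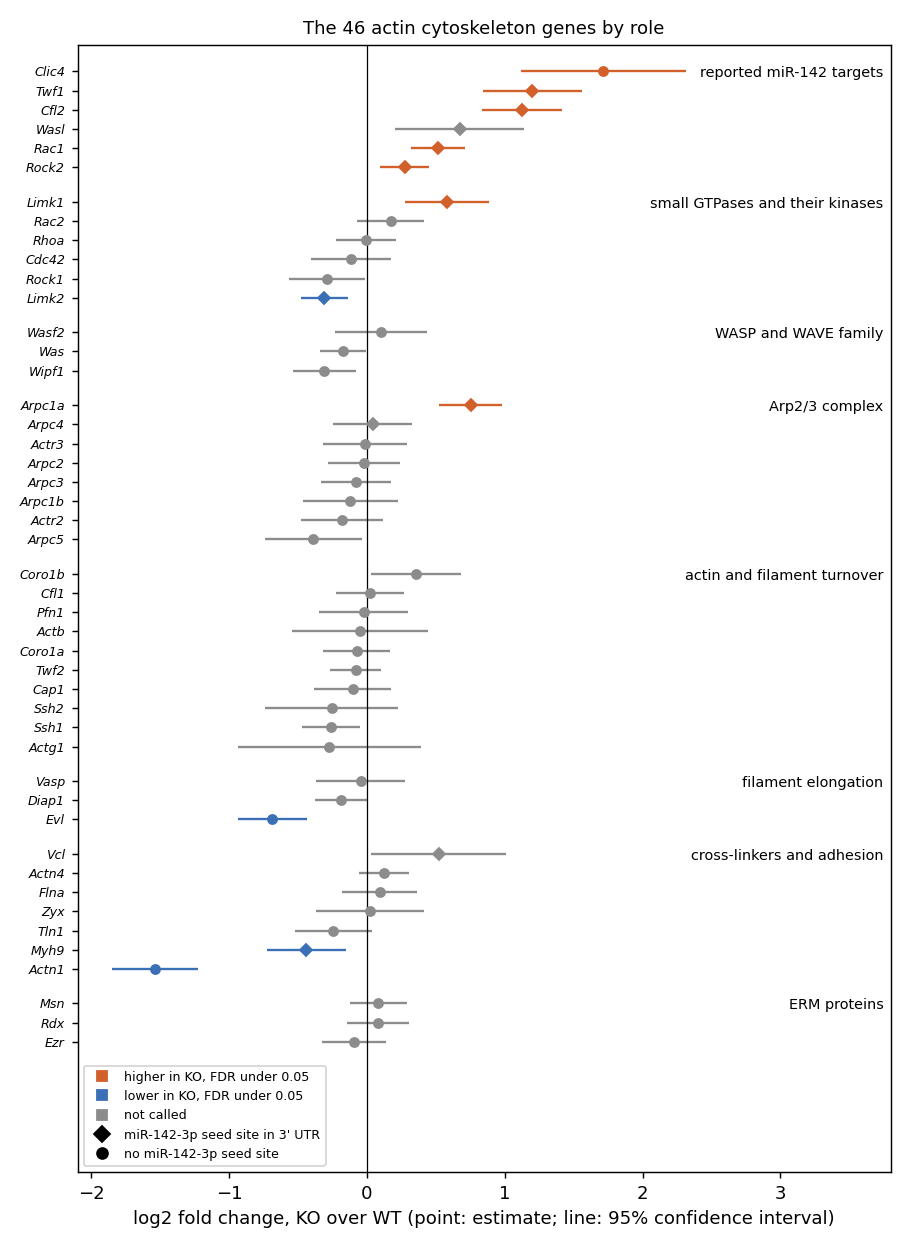
Log2 fold change of the 46 members, KO over WT (horizontal axis), with the 95% confidence interval, grouped by role. Orange and blue mark the 7 higher and 4 lower calls, grey the 35 not called, and diamonds the 11 members with a miR-142-3p site. The 6 reported targets all lie right of 0, while most others sit near 0, with Actn1 at −1.54 farthest to the left.

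All 6 reported targets had higher means in KO cells, each with every KO library above every WT library, and 5 of them rose at an FDR under 0.05. The median of the 6 was a log2 fold change of 0.90, and they ranged from 0.27 (Rock2) to 1.72 (Clic4). Clic4, a chloride intracellular channel family protein that moves to membranes in step with RhoA and actin, was at 32.5, 27.9 and 33.0 CPM in WT and 148, 76.5 and 82.3 CPM in KO libraries. KO replicate 1 was far above the other KO libraries, and even the lowest KO library was more than the highest WT one. The log2 fold change of Clic4 was 1.72 (SE 0.25, FDR = 0.0056) and was 1.34 without KO replicate 1 (FDR = 0.000399). Twf1, twinfilin 1, which caps filaments and binds actin monomers, was at 38.6, 46.4 and 50.3 CPM in WT and 109.9, 117 and 84.3 CPM in KO libraries, with KO replicate 3 the lowest of its group but still above all WT libraries. Its rise was 1.20 on the log2 scale (SE 0.15, FDR = 0.00364), or 1.14 without KO replicate 1.

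Cfl2, cofilin 2, the filament-severing cofilin best known from muscle, was at 16.1, 19.9 and 19.0 CPM in WT and 40.5, 42.8 and 36.7 CPM in KO libraries. The 2 groups were tight and well separated, and the log2 fold change was 1.13 (SE 0.12, FDR = 0.00219), or 1.10 without KO replicate 1. Rac1, the broadly expressed GTPase that drives lamellipodia, was at 269, 287 and 288 CPM in WT and 423, 400.2 and 384 CPM in KO libraries, again without overlap. Its rise was smaller, at 0.52 on the log2 scale (SE 0.08, FDR = 0.0076), or 0.46 without KO replicate 1. Rock2, a kinase that promotes myosin contraction, was at 129, 139 and 137 CPM in WT and 160.1, 166 and 164 CPM in KO libraries. The groups did not overlap, but the log2 fold change of 0.27 (SE 0.08, FDR = 0.0436) was near the threshold and the call was lost in 8 of 12 alternative fits, among them the one without KO replicate 1 (0.27, FDR = 0.077). It was also lost when the likelihood ratio test (FDR = 0.099) and the exact test of edgeR (FDR = 0.103) had to pass. Its 3 matched stretches for the 3p forms therefore went with the smallest rise of the 6, while the single one of Twf1 went with a larger one.

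Wasl encodes N-WASP, the widely expressed relative of the blood cell protein WASP. It had the most sites of any member and did not pass the test. Its level was 49.0, 68.4 and 71.1 CPM in WT and 87.5, 128 and 85.8 CPM in KO libraries, and KO replicate 2 and WT replicate 1 were the libraries farthest from their groups. The log2 fold change was 0.67 (SE 0.20, 95% interval 0.20 to 1.14, FDR = 0.0566). Of the 12 alternative fits, 3 called it higher (DESeq2, the replicate block and the fit without KO replicate 1, where the log2 fold change was 0.74 and FDR = 0.0398).

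**Figure D2:**
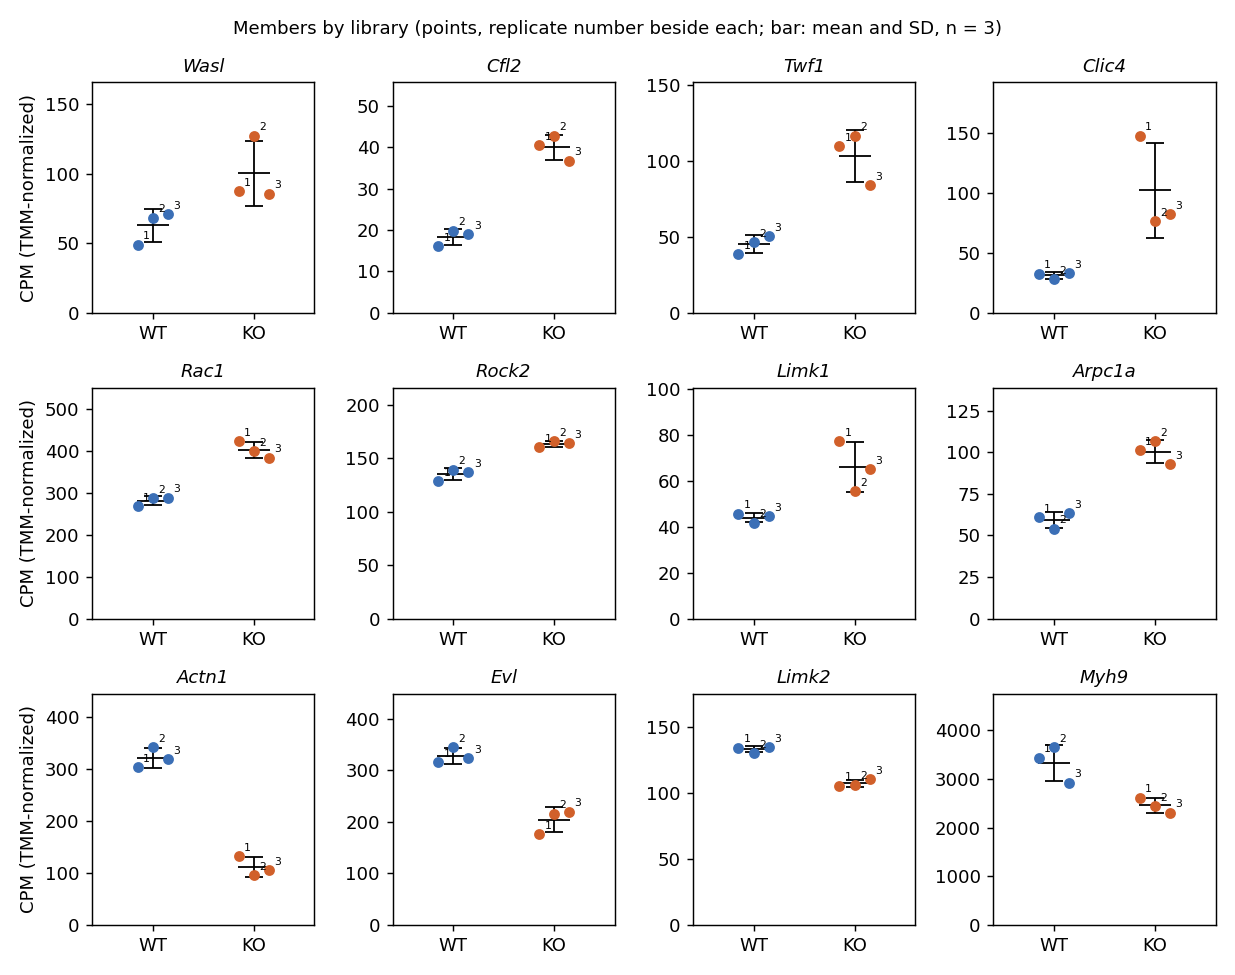
CPM scaled by the trimmed mean of M values (TMM; vertical axes, from 0) of the 6 reported targets and the 6 other members called, in 3 WT and 3 KO libraries, with the replicate number beside each point and the mean ± SD as bars. In each panel the 2 groups are apart, by a wide gap for Cfl2 and Actn1 and a narrow one for Rock2, and the KO point at 148 CPM stands out for Clic4.

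Among the small GTPases and the kinases below them, 1 member was higher and 1 lower, and these are the 2 LIM kinases, which phosphorylate cofilin. Limk1 was at 45.8, 41.7 and 44.6 CPM in WT and 77.2, 55.4 and 65.1 CPM in KO libraries, with all KO libraries above WT. Limk2 was at 135, 131 and 135 CPM in WT and 106, 106 and 111 CPM in KO libraries, all below WT. The log2 fold change was 0.58 for Limk1 (SE 0.13, FDR = 0.0234) and −0.31 for Limk2 (SE 0.07, FDR = 0.0264). Each call was lost in 4 of 12 alternative fits, that of Limk2 also where the likelihood ratio test had to pass (FDR = 0.0547), and without KO replicate 1 the values were 0.44 (FDR = 0.0371) and −0.31 (FDR = 0.0452). Both genes carry a 3p match to a motif that ends in the fixed A. That of Limk1 is from the 3p seed (CACTACA) and that of Limk2 from the form that starts 1 base later (ACACTAA). The GTPases Rac2, Cdc42 and Rhoa and the kinase Rock1 were not called. The interval of the log2 fold change was −0.07 to 0.42 for Rac2, the GTPase restricted to blood cells, −0.41 to 0.18 for Cdc42 and −0.22 to 0.21 for Rhoa. Rock1, paralogue of Rock2, lay on the other side of 0 at −0.29 (SE 0.12, FDR = 0.126). Rhoa and Cdc42 have 5p sites, and that of Rhoa is an 8-base match, longer than either one in Clic4.
Rhoa, chr9:108337124-108337153, plus strand, exon 6 of 6: tgaattaggctgtaactACTTTATAactaa
With that site Rhoa stood at 204, 207 and 193 CPM in WT and 218, 183 and 201 CPM in KO libraries, which overlapped throughout.

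In the WASP and WAVE family, with Wasl described above among the reported targets, 0 of the 3 other members were called by edgeR. At an unadjusted p under 0.05 there were 2, Was and Wipf1, both lower, and DESeq2 called 1, Wipf1. Over all 11658 genes DESeq2 called 1665 higher and 1198 lower. Was (WASP itself, mutated in Wiskott-Aldrich syndrome) was at 217, 214 and 218 CPM in WT and 191, 195 and 189.9 CPM in KO libraries, a small shift without overlap (log2 fold change −0.17, SE 0.07, FDR = 0.135). Wipf1 (WIP, the protein that holds WASP stable) was at 443, 499 and 488 CPM in WT and 419.9, 368 and 366 CPM in KO libraries, also without overlap (log2 fold change −0.31, SE 0.10, FDR = 0.0669). Wasf2, a subunit of the WAVE complex, was at 0.10 with an interval of −0.23 to 0.43.

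Of the 8 Arp2/3 subunits, 1 was called. Arpc1a, an isoform of the subunit that holds the complex to its activators, was at 61.0, 54.2 and 63.2 CPM in WT and 101, 106 and 92.8 CPM in KO libraries, with a clear gap between the groups. Its rise was 0.75 on the log2 scale (SE 0.10, FDR = 0.00369), or 0.73 without KO replicate 1. The exchangeable isoform Arpc1b, the main one in blood cells, was at 280.4, 269.9 and 259.7 CPM in WT and 307, 210.4 and 227 CPM in KO libraries, and the groups overlapped (log2 fold change −0.12, interval −0.46 to 0.22). For the core subunits Actr2, Actr3, Arpc2, Arpc3 and Arpc4 the log2 fold change lay between −0.18 and 0.04. For Arpc5 it was −0.39 (SE 0.15, FDR = 0.11), and −0.59 without KO replicate 1, where edgeR called it lower (FDR = 0.00726). Arpc4 has a 3p match and was at 0.04 with an interval of −0.25 to 0.33.

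Cfl2 and Twf1, which also act in filament turnover, rose and are described with the reported targets. Of the 10 other genes of actin itself and of filament turnover, edgeR called 0, with 2 at an unadjusted p under 0.05 (Coro1b higher, Ssh1 lower), and DESeq2 called 1 (Ssh1, lower). Actb ranged widely within both groups, at 6066, 5635 and 3857 CPM in WT and 6021, 4127 and 4876 CPM in KO libraries. A change anywhere within its 95% interval of −0.55 to 0.44 is therefore not excluded. Cfl1 (cofilin 1, the main cofilin outside muscle) was at 696, 644 and 705 CPM in WT and 772, 667 and 637 CPM in KO libraries, and its log2 fold change was 0.02 (interval −0.22 to 0.27). Twf2 (the other twinfilin) was at −0.08 (−0.27 to 0.10) and Pfn1 at −0.02 (−0.35 to 0.30). Cap1, which recycles actin monomers, was at −0.10 (−0.38 to 0.18), and Coro1a at −0.07 (−0.32 to 0.17). Coro1b, a coronin of migrating cells, was at 0.35 (SE 0.14, FDR = 0.117), and the slingshot phosphatases Ssh1 and Ssh2 were at −0.26 (FDR = 0.0809) and −0.26 (FDR = 0.42). Actg1 was at −0.27 with the widest error of the members, an SE of 0.28.

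Among the 3 proteins that extend unbranched filaments, 1 fell. Evl, the Ena/VASP member typical of blood cells, was at 316, 345 and 324 CPM in WT and 176, 216 and 219.9 CPM in KO libraries, far below WT in all 3. The log2 fold change was −0.69 (SE 0.11, FDR = 0.00691) and −0.61 without KO replicate 1. Vasp, its relative, was at −0.05 (interval −0.37 to 0.28). Diap1, the formin mDia1, was at 354, 359.8 and 369.6 CPM in WT and 334, 302 and 317 CPM in KO libraries, without overlap and below the threshold of the test (log2 fold change −0.19, SE 0.08, FDR = 0.15).

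Of the 7 cross-linking and adhesion genes, 2 fell. Actn1 (α-actinin 1, which bundles filaments and links them to integrins) had the smallest FDR of all members. Its level was 304, 342 and 319 CPM in WT and 132, 95.4 and 105 CPM in KO libraries, so that the highest KO library was well under the lowest WT one. The log2 fold change was −1.54 (SE 0.13, FDR = 0.000996), and without KO replicate 1, its highest KO library, −1.70. The paralogue Actn4 was at 298, 301 and 284 CPM in WT and 320.2, 314 and 329 CPM in KO libraries (0.12, interval −0.06 to 0.30). Myh9, the heavy chain of nonmuscle myosin IIA, was at 3434, 3650.0 and 2924 CPM in WT and 2617, 2444 and 2305 CPM in KO libraries. The groups did not overlap. The log2 fold change was −0.44 (SE 0.12, FDR = 0.0449), or −0.51 without KO replicate 1, but the call was lost in 7 of 12 alternative fits, among them those that leave out any WT library. Actn1 and Evl, which fell most, have no match to any of the 3 seeds, whereas Myh9 has a 3p match.

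The other adhesion genes were not called. Tln1 (talin 1, which activates integrins) was at −0.24 (interval −0.52 to 0.03), Flna (filamin A) at 0.09 (−0.18 to 0.36) and Zyx (zyxin) at 0.02 (−0.37 to 0.41). Vcl (vinculin, which ties talin to actin) was the lowest member per kilobase in WT cells. Its level was 9.55, 10.9 and 11.3 CPM in WT and 19.6, 13.8 and 12.0 CPM in KO libraries. It did not overlap between groups, with KO replicate 1 highest, and was not called (log2 fold change 0.52, SE 0.21, FDR = 0.123, and 0.27 without KO replicate 1). Of the 3 ERM genes Ezr, Msn and Rdx, whose proteins tie actin to the membrane, edgeR and DESeq2 called 0, and 0 had an unadjusted p under 0.05. Their log2 fold changes were −0.10, 0.08 and 0.08, and the widest of their intervals was −0.33 to 0.14.

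Several members belong to small families of paralogues whose fold changes differed, so the share of 1 paralogue in the summed FPKM of its family was computed in each library. The families were put together after the values were seen, and the shares are a description without a test. In each of them the KO libraries lay all on 1 side of the WT libraries. This is no separate evidence, since each paralogue whose share is given was already without overlap in its own level. Twf1 made up 15.8%, 19.7% and 21.0% of the twinfilin level (Twf1 and Twf2) in WT and 38.4%, 38.3% and 31.1% in KO libraries. Wasl made up 8.01%, 10.99% and 11.2% of Was plus Wasl in WT and 15.0%, 20.2% and 14.9% in KO libraries. In both pairs the minor partner gained while the blood cell or major form stayed the larger one.

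Arpc1a made up 30.2%, 28.6% and 32.7% of Arpc1a plus Arpc1b in WT and 39.7%, 50.2% and 44.9% in KO libraries, so that in KO replicate 2 the level of both isoforms was close to equal. Limk1 made up 22.5%, 21.4% and 22.0% of the LIM kinases in WT and 38.3%, 30.7% and 33.4% in KO libraries, while the summed level was 28.0 ± 0.664 FPKM in WT and 26.8 ± 1.5 FPKM in KO cells (SD, n = 3). Rock2 likewise rose from a mean of 38.7% ± 2.11 to 48.2% ± 1.66 of the ROCK kinases, at 25.2 ± 2.34 and 24.4 ± 1.14 FPKM in sum. For the LIM and ROCK kinases, then, the mix of paralogues differed and the summed level differed between groups by less than the larger of the group SDs.

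Rac1 was 12.3% ± 1.10 of Rac1 plus Rac2 in WT and 15.1% ± 1.23 in KO cells, and Rac2 remained by far the larger. Cfl2 was 2.22% ± 0.306 and 4.26% ± 0.527 of the cofilin family (Cfl1, Cfl2 and Dstn), which Cfl1 dominated in both groups. The alpha-actinins moved the other way, with Actn1 at 53.0%, 55.7% and 55.4% of Actn1 plus Actn4 in WT and 31.3%, 25.2% and 26.1% in KO libraries. Their summed level was 106 ± 4.12 FPKM in WT and 72.4 ± 3.82 FPKM in KO cells. Merged exon lengths count all annotated isoforms of a gene, so the percentages depend on the annotation.

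**Figure D3:**
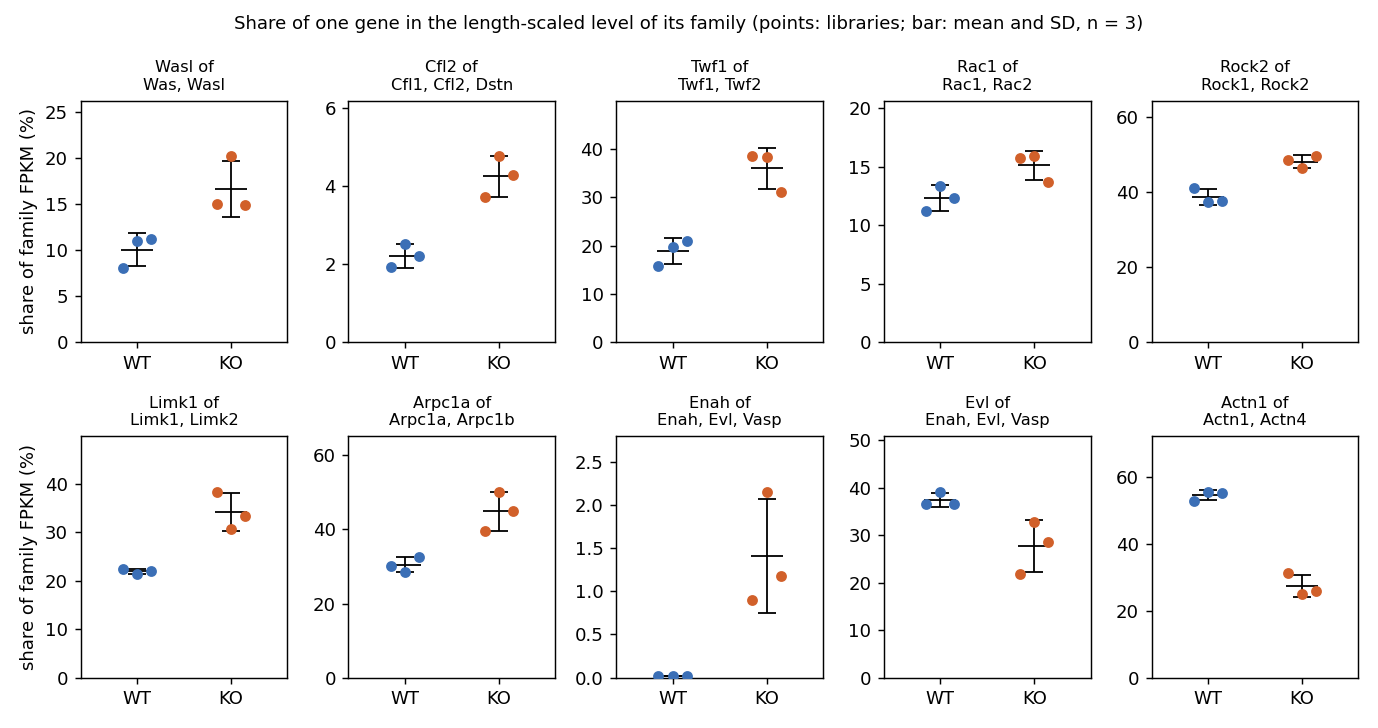
Share of 1 paralogue in the summed FPKM of its family (vertical axes in percent, from 0) in each WT and KO library, with the mean ± SD as bars. The shares of Wasl, Cfl2, Twf1, Rac1, Rock2, Limk1, Arpc1a and Enah are higher in every KO library, and those of Evl and Actn1 lower.

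Read by site, the 11 members with a 3p match were 6 higher, 2 lower and 3 not called (Wasl, Vcl and Arpc4), with a median log2 fold change of 0.52. The 35 without a 3p match were 1 higher (Clic4), 2 lower (Actn1 and Evl) and 32 not called, with a median of −0.08. Without KO replicate 1 the counts were 6 higher and 2 lower of the 11, and 1 higher and 5 lower of the 35, with medians of 0.44 and −0.18. Over all 11429 genes of that fit 1107 were higher and 868 lower, with a median of −0.02. With all 6 libraries and over all tested genes with a UTR, 19.7% of those with a 3p match were higher, against 9.56% of those without. The medians were 0.12 and −0.01. Of the 2512 genes with a 3p match 140 were lower, and of the 8611 without one 657 were lower. Because 5 of the 11 were placed in the list as known targets, the 40 members that were not are given separately. Of these, 6 had a 3p match, with 2 higher, 2 lower and 2 not called, and a median of 0.28. The 34 without a 3p match were 0 higher, 2 lower and 32 not called, with a median of −0.08. The UTRs with a 3p match were also longer, at a median of 1869 bases against 1113 in the other members and 2351 against 943 over all genes, and the part of UTR length was not tested. Of the 9 members with a 5p match and no 3p match, 1 was higher (Clic4) and the median was −0.01, and over all genes 10.2% of this class were higher.

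**Figure D4:**
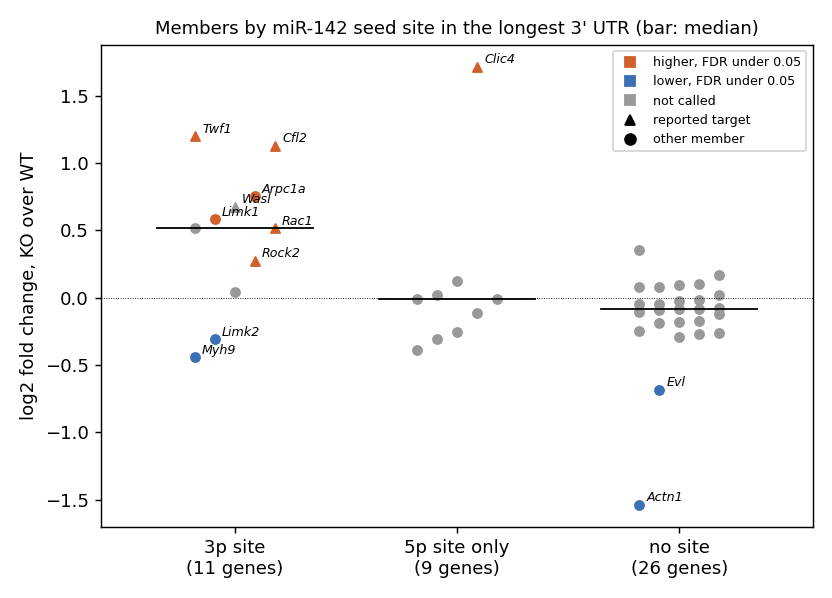
Log2 fold change, KO over WT (vertical axis), of the 46 members by seed match in the longest 3′ UTR, with 11 members under a 3p match, 9 under a 5p match only and 26 under neither. Triangles are the 6 reported targets, colours mark the calls and bars the medians (0.52, −0.01 and −0.08), and the calls among members without any match are Evl and Actn1, both lower.

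Beyond the members, 104 other genes of the actin pathway in the matrix were looked up from a wider list, and 95 were abundant enough to test. Of these, 15 were higher and 5 lower (21.1% called), with a median log2 fold change of 0.06. Without KO replicate 1 the counts were 11 and 9. With 1 WT library left out they were 7 to 9 higher and 0 to 3 lower in edgeR, the 0 being without WT replicate 2, where 10 were lower at an unadjusted p under 0.05. Of the 23 with a 3p match 6 were higher and 1 lower, and of the 72 without one 9 were higher and 4 lower. Of the 7 classes of the list, the one labelled capping, severing and monomer binding had 17 genes tested, with 7 of them higher and 2 lower (52.9% called). This hand-made class is mixed, and its higher genes were Capg, Gsn, Dstn, the coronins Coro1c and Coro2a, the slingshot phosphatase Ssh3 and Enah. The other 6 classes had 8.33% to 21.7% called, beside 18.8% of all genes. Ordered by p, the higher ones began with Enah, the third Ena/VASP gene, at 0.985, 0.902 and 1.16 CPM in WT and 52.8, 103 and 65.8 CPM in KO libraries (log2 fold change 6.18, SE 0.32, FDR = 0.000212). All WT libraries were near 1 CPM, above the floor of 3 counts, and all KO libraries were far higher. Enah still made up only 1.41% ± 0.66 of the Ena/VASP level in KO cells, whose sum was 298 ± 4.21 FPKM in WT and 253 ± 26.0 FPKM in KO cells as Evl fell from 37.5% to 27.8% of it.

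Dstn, the third cofilin (destrin), came next, at 13.1, 15.1 and 15.7 CPM in WT and 94.1, 52.1 and 52.4 CPM in KO libraries, highest in KO replicate 1 and above WT in all 3 (log2 fold change 2.18, SE 0.25, FDR = 0.00253, and 1.82 without KO replicate 1). Its share of the cofilin family went from 3.03% ± 0.318 to 11.7% ± 2.67, so both minor cofilins rose while Cfl1 was not called. Cdc42bpa (MRCKα, a Cdc42-dependent kinase of myosin) rose by 1.99 (FDR = 0.00336), Tpm4 (a tropomyosin that coats filaments) by 0.86 (FDR = 0.00609) and Abi2 (a WAVE complex subunit) by 0.64 (FDR = 0.00425). The lower genes were Pfn2 (profilin 2) at −1.49 (FDR = 0.01), Actn2 (the muscle α-actinin) at −1.18 (FDR = 0.0126), Gmfg (which removes branches) at −0.64 (FDR = 0.0445), Arhgap4 (a GTPase-activating protein) at −0.46 (FDR = 0.0381) and Myl12b (a myosin II regulatory light chain) at −0.31 (FDR = 0.043). Enah, Dstn, Abi2 and Tpm4 have a 3p match, as does Arhgap4 among the lower genes, and Cdc42bpa has no match.

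The 11 calls were of unequal strength. Cfl2, Twf1, Clic4, Rac1, Arpc1a, Actn1 and Evl, 7 in all, were called in each of the 12 alternative fits. Rock2, Limk1, Limk2 and Myh9 were not. Neither the 11 called members nor Wasl changed sign in any of these fits. Some members near 0 did, such as Cfl1 and Zyx, both at 0.02 and at −0.08 and −0.20 without KO replicate 1. The number of lower members was 2 with any 1 of the WT libraries left out and 7 without KO replicate 1, where Arpc5, Tln1 and Wipf1 joined the 4, while the number of higher members was 5 without any 1 WT library or without KO replicate 3, and 7 without KO replicate 1, with Wasl in place of Rock2. When all 3 edgeR tests had to pass, the criterion in the study's methods, 6 members were higher and 3 lower, without Rock2 and Limk2. With library sizes left unscaled by TMM the split was 6 higher and 7 lower.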

How the data were processed

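Splenic CD4+YFP+ Treg cells of 3 WT and 3 KO mice were profiled by single-end RNA-seq of total RNA. According to the study's methods, the authors aligned reads with HISAT to mm10 and counted them per gene with featureCounts without strand. The deposited matrix holds raw whole-number counts for 24421 genes, and the authors' own normalization is not in it.

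Genes above 1 CPM in 3 or more libraries (11658) were tested KO against WT with edgeR 4.0.16 in R 4.3.3, using TMM, the quasi-likelihood F test without a covariate and Benjamini-Hochberg FDR under 0.05. CPM values are on TMM-scaled library sizes and FPKM values divide these by merged exon length from GENCODE vM21 (GRCm38, the build mm10 names). The common biological coefficient of variation was 0.212. P-values measure the spread between 3 mice per group, and depth (13883069 to 24042994 counts) limits low genes. Alternatives were RLE size factors, no TMM, DESeq2 1.42.0, the 3 edgeR tests together, filterByExpr, no filter, FDR under 0.01, a replicate block, leaving out each library, and UTRs of any transcript. The 6 reported targets and every called member have their values given in each library, and of the other actin genes the 5 with the smallest p in each direction are named, with fold change and FDR. Members and lists were chosen with earlier results of these data known. Of 105 other actin genes listed, 98 matched by symbol, 6 by an older symbol and 1 was a member. Trac, a Treg marker, was not matched.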

Additional observations from a re-analysis of the deposited data

How the results depend on the processing

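The number of higher members stayed within 1.5 times of 7 in all alternatives, and the 11 members with a 3p site became 12 when UTRs of any transcript were read. The number of lower members, 4, was 7 without TMM, and 2 with the replicate block or at an FDR under 0.01, and it ranged from 2 to 7 with 1 library left out. Of the other actin genes, the 5 lower became 12 without TMM, 13 in DESeq2, 3 without a filter and 0 in edgeR at an FDR under 0.01, where 17 had an unadjusted p under 0.05. With 1 library left out they ranged from 0 to 9, the 0 being without WT replicate 2, where 10 had an unadjusted p under 0.05. The 15 higher became 8 at an FDR under 0.01 and ranged from 7 to 18 with 1 library left out. Over all genes, the 1350 higher and 847 lower became 490 and 196 at an FDR under 0.01, and ranged from 483 to 1403 and from 208 to 937 with 1 library left out. Without TMM 47% of calls over all genes were higher, against 61.4%. With the replicate block, 545 genes were lower and 1061 higher, and Wasl was gained and Rock2, Limk2 and Myh9 lost among the members. The deviations of same-numbered libraries correlated at 0.0731, −0.0124 and −0.188, and not every library correlated best with its own number. With 3 libraries per group these values cannot show or exclude a pairing. The labels share only a number, so no pairing is read from the block. No reversed direction was found for the 12 members checked, which were the reported targets and all called members. Members near 0, such as Cfl1, did reverse without KO replicate 1. The cause of these shifts was not tested. Low counts limit Vcl and Actg1 most.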
